A study of Rattus norvegicus with 14 samples.

Results

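The cluster of miR-183, miR-96 and miR-182 was followed in the serum of rat pups that were hypothyroid or euthyroid. Its members were taken by name from a table of 375 mature miRNAs, as every row named miR-183, miR-96 or miR-182 once the arm was removed, and 2 rows matched, miR-183-5p and miR-182. miR-96 and the other arm of miR-183 were not analysed here.

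The PTU group held 6 libraries from hypothyroid pups, whose dams drank water with 3 ppm of PTU (propylthiouracil, an inhibitor of thyroid hormone production) and were themselves mildly hypothyroid per the labels. The Control group held 8 libraries from euthyroid pups, whose dams drank water with 0 ppm. All pups were female Long Evans rats on postnatal day 8, and each library came from the cell-free serum of 1 pup, with 1 pup taken per litter, so that replicates are separate animals. Serum collects RNA from many tissues, and these data do not say which cells released a miRNA. Counts per library summed to between 452961 and 2119979 over the listed miRNAs.

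miRNAs are short RNAs that guide a silencing complex to messenger RNAs, mainly by pairing through the seed, bases 2 to 8 of the mature strand. The 3 hairpins of this cluster are transcribed together in mammals. The cluster is best known from sensory cells, namely photoreceptors of the retina, hair cells of the inner ear and neurons of the dorsal root ganglia, and changes in the seed of miR-96 cause hearing loss in humans and mice. Its members are also made in epithelia and, for miR-182, in activated lymphocytes. Photoreceptor and inner ear maturation depend on thyroid hormone in rodents.

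The mature strands are shown because the members differ from each other in the seed, the part that selects targets. They come from RefSeq on rat assembly GRCr8, where both listed members had an entry, and read from the 5′ end with the seed in capitals:
miR-183-5p: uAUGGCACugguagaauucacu
miR-96-5p: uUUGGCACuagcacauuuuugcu
miR-182: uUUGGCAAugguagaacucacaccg

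miR-183-5p and miR-182 carried the same base at 18 of the 22 positions compared without gaps, and shared a run of 8 bases outside the seed. Counted from 1 at the 5′ end, the changes from miR-183-5p to miR-182 were A2U and C8A in the seed and U17C and U22A beyond it. The seed of miR-96-5p lay between them, with A2U against miR-183-5p and with C8A leading from miR-96-5p to miR-182. None of these seeds was shared by another mature rat miRNA of the RefSeq table.

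On GRCr8, miR-183-5p lies at chr4:59756106-59756127, miR-96-5p at chr4:59755901-59755923 and miR-182 at chr4:59752249-59752273, all on the minus strand. Read along that strand the order is miR-183, miR-96, miR-182. The hairpins of miR-183 and miR-96 are 97 bases apart, and those of miR-96 and miR-182 are 3533 bases apart. No annotated gene contains all 3 hairpins, and the flanking protein-coding genes are Nrf1 and Ube2h. The hairpin of miR-3553 overlaps that of miR-183 on the plus strand, and the reverse complement of mature miR-3553 holds the whole of miR-183-5p. The sources used here do not say whether the authors counted by strand, so reads of the opposite strand cannot be told apart from miR-183-5p.

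Both members were of middle abundance. miR-183-5p took 0.0547% ± 0.0154 of the listed counts (SD, n = 14) and ranked 112 of 375 by mean share. miR-182 took 0.0327% ± 0.00761 (SD, n = 14) and ranked 140. A count stands for a whole mature miRNA of 22 or 25 bases, so these levels were compared with no division by length. Ligation and amplification differ between sequences, and the ratio in the serum itself may differ from that of the counts.

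miR-183-5p, which opens the cluster, had 456, 599, 420, 511, 553 and 350 CPM in PTU replicates 1 to 6 (counts scaled to library size with trimmed-mean, or TMM, factors). In the Control libraries its lowest level was 438, its median 537 and its highest 978 CPM. The groups overlapped: 4 of 6 PTU libraries lay within the Control range, 2 lay below it, and 2 lay above the Control median. Control replicate 5 was the highest library of all, at 978 CPM, and the next Control library was at 688 CPM. That library was also the smallest of the 14, with 460 counts of miR-183-5p.

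miR-182, the last hairpin of the cluster, had 236, 331, 259, 287, 341 and 384 CPM in PTU replicates 1 to 6. Its lowest, median and highest levels in the Control libraries were 262, 318 and 457 CPM. The groups again overlapped, with 4 of 6 PTU libraries within the Control range and 3 above the Control median. PTU replicate 6, the lowest of all 14 libraries for miR-183-5p in CPM, was the highest of its group for miR-182. By share of the listed counts, PTU replicate 3 was lower for miR-183-5p, at 0.0414% beside 0.0416% in PTU replicate 6.

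**Figure D1:**
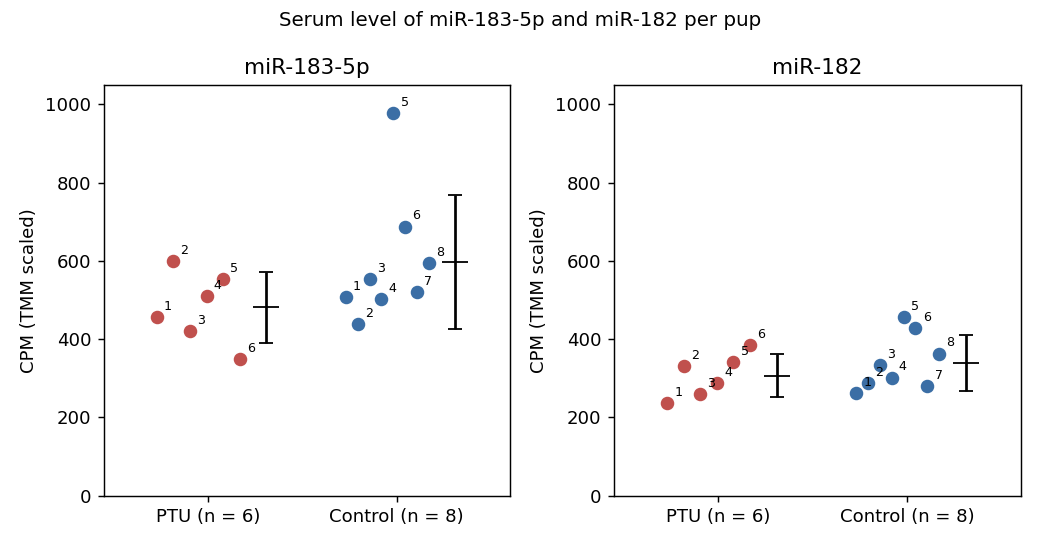
Level of miR-183-5p (left) and miR-182 (right) in CPM, with 1 point per pup numbered by replicate and the mean ± SD as a black bar beside each group (PTU n = 6, Control n = 8). The groups overlap for both, Control replicate 5 stands at 978 CPM for miR-183-5p, and PTU replicate 6 is the lowest point on the left and the highest PTU point on the right.

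Neither member passed the test between the PTU and Control groups. The mean level of miR-183-5p was 482 ± 91.3 CPM in the PTU group (SD, n = 6) and 598 ± 170 CPM in the Control group (SD, n = 8). This gave a log2 fold change, PTU over Control, of -0.31 ± 0.18 (SE; 95% interval from -0.70 to 0.08). By edgeR's quasi-likelihood test the unadjusted p was 0.110, and the p adjusted over 357 miRNAs by Benjamini-Hochberg was 0.455. The mean level of miR-182 was 306 ± 55.5 CPM in the PTU group (SD, n = 6) and 339 ± 71.6 CPM in the Control group (SD, n = 8). Here the log2 fold change came to -0.14 ± 0.17 (SE; 95% interval from -0.49 to 0.20), with an unadjusted p of 0.393 and an adjusted p of 0.740 by edgeR. As folds, the intervals ran from 0.617 to 1.06 for miR-183-5p and from 0.711 to 1.15 for miR-182. Levels in CPM are relative to the other miRNAs of a library. In serum, a difference in the number of releasing cells and one in the RNA released per cell cannot be told apart.

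At an FDR (false discovery rate) of 0.05, 0 of the 2 members and 0 of all 357 tested miRNAs (0%) were called by edgeR's quasi-likelihood test, with 47 of the 357 at an unadjusted p under 0.05. Other tools called 1 miRNA (DESeq2), 3 (edgeR's likelihood ratio test) and 0 (limma-voom), with neither member among them. At an unadjusted p under 0.05, 0 of 2 members were lower in PTU, beside 19 of 357 (5.32%) over all miRNAs, and 0 of 2 were higher, beside 28 of 357 (7.84%). On log2 CPM, an exact permutation test (two-sided, 3003 arrangements) gave p = 0.129 for miR-183-5p and p = 0.367 for miR-182. The authors' deposited table gives miR-183-5p a log2 fold change of -0.30 (FDR 0.548) and miR-182 one of -0.12 (FDR 0.904).

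The estimates kept a negative sign under all 27 alternatives run for each member, and their sizes depended on single libraries and on the test. For miR-183-5p the log2 fold change was -0.18 without Control replicate 5, -0.14 by limma-voom with quality weights, -0.19 with the log2 library total as a covariate and -0.17 with the red cell ratio described below as a covariate. For miR-182, leaving out PTU replicate 6 gave -0.25 and leaving out Control replicate 5 gave -0.067, with -0.045 under no scaling factors and -0.042 with the red cell ratio as a covariate. Upper-quartile factors shifted the median of all miRNAs by -0.11 and gave -0.41 for miR-183-5p and -0.27 for miR-182. Relative to the median of all miRNAs, miR-183-5p stood at -0.34 with both upper-quartile and trimmed-mean factors.

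**Figure D2:**
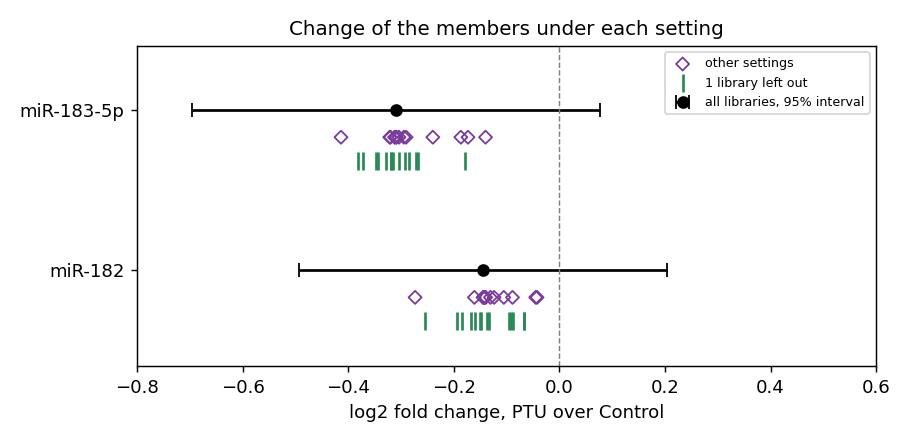
log2 fold change, PTU over Control, of miR-183-5p and miR-182. Black points with bars are the estimate and 95% interval over all 14 libraries, diamonds are the other settings and green ticks are fits with 1 library left out. All values lie below 0, and both intervals include 0.

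The spread between libraries, 1 per pup, was wider than the counting error reckoned with each count taken as a separate molecule. The coefficient of variation of CPM for miR-183-5p was 19.0% in PTU and 28.5% in Control libraries, where counting alone would give a mean of 4.26% and 4.38%. For miR-182 it was 18.1% in PTU and 21.1% in Control libraries, where counting alone would give 5.38% and 5.82%. In Control replicate 1, the library with the fewest counts of both, the 95% Wilson intervals of the shares were 0.0452% to 0.0567% for miR-183-5p (294 counts) and 0.0223% to 0.0307% for miR-182 (152 counts). These intervals cover counting error only, since reads amplified by PCR need not be separate molecules.

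The balance between the members does not depend on the scaling, since both counts come from the same library. miR-183-5p was above miR-182 in 13 of 14 libraries, in 5 of 6 PTU and 8 of 8 Control libraries. The ratio of counts was 1.93, 1.81, 1.62, 1.78, 1.62 and 0.910 in PTU replicates 1 to 6. In all 8 Control libraries it lay between 1.53 and 2.14. Only PTU replicate 6, with 496 counts of miR-183-5p and 545 of miR-182, had the order turned round.

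On the log2 scale, with 0.5 added to each count, the ratio averaged 0.65 ± 0.40 in PTU (SD, n = 6) and 0.80 ± 0.16 in Control libraries (SD, n = 8). The groups differed by -0.15, with p = 0.417 in an exact permutation test (two-sided, 3003 arrangements, 1 ratio tested). Without PTU replicate 6 the PTU mean was 0.81 ± 0.11 (SD, n = 5), beside 0.80 ± 0.16 in Control libraries, and the difference was 0.0064 (p = 0.955, exact, 1287 arrangements).

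**Figure D3:**
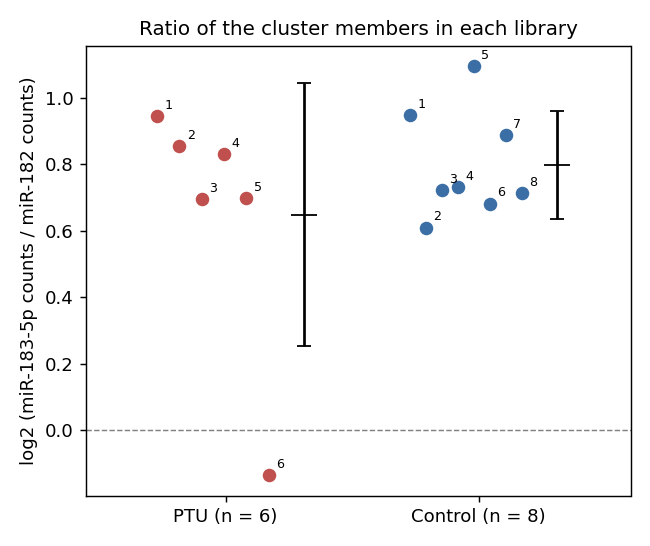
log2 ratio of miR-183-5p counts to miR-182 counts in each library, numbered by replicate, with the mean ± SD of each group as a black bar (PTU n = 6, Control n = 8). The dashed line marks equal counts, and PTU replicate 6 is the only point below it, at -0.14.

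PTU replicate 6 also stood apart in the epithelial miRNAs, in both directions. miR-141-3p and miR-200c-3p, made from 1 locus in mammals, were at 3441 and 936 CPM in PTU replicate 6, where the medians of the other 13 libraries were 322 and 436 CPM. miR-200b-3p and miR-429, of the other locus of the miR-200 family, were at 118 and 179 CPM, and the skin miRNAs miR-203a-3p, miR-203b-3p and miR-205 at 1748, 38.8 and 1375 CPM. In scaled CPM these 5 were each below all other 13 libraries, whose medians were 173, 316, 3569, 218 and 2152 CPM. PTU replicate 6 had the largest trimmed-mean factor (1.19), which lowers its CPM, and these comparisons were not repeated without scaling. Over the epithelial list, 2 of 9 miRNAs in this library were above and 5 below all others. Over all 357 tested miRNAs this library was the highest of the 14 for 66 (18.5%) and the lowest for 65 (18.2%). Without it the log2 fold change of miR-183-5p was -0.27 (edgeR unadjusted p = 0.158, adjusted p = 0.541), beside -0.31 with all libraries.

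Since the members share a transcript, their levels were compared from pup to pup. Over all 14 libraries, log2 CPM of miR-183-5p and miR-182 had a Pearson r of 0.61 (permutation p = 0.0182) and a Spearman rho of 0.59 (permutation p = 0.0301). Within the 6 PTU libraries r was -0.05 (exact p = 0.932) and rho 0.03 (exact p = 1.0). Within the 8 Control libraries r was 0.89 (exact p = 0.000918) and rho 0.81 (exact p = 0.0218). The same Control libraries thus tended to be high or low for both. With 1 library per pup, differences between pups cannot be told apart from those of library depth or preparation. In these 8 libraries the log2 library total had r = -0.74 with miR-183-5p and -0.46 with miR-182. Adjusted over these 3 sets of libraries, the permutation p of r was 0.0273 over all, 0.932 in PTU and 0.00275 in Control, and that of rho was 0.0452 over all, 1.0 in PTU and 0.0452 in Control. Whether r differed between the groups was not tested.

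These values depended on a few libraries, and which of them lay farthest from the median depended on the scaling. When the 2 libraries farthest from the median of miR-183-5p, Control replicate 5 and PTU replicate 6, were left out, r was 0.88 (n = 12). The same rule gave 0.13 with RLE factors and 0.20 with no factors, where it left out Control replicates 5 and 6 instead. With group means taken out it left out Control replicate 5 and PTU replicate 2 and gave 0.33. With upper-quartile factors, where the libraries left out were Control replicate 5 and PTU replicate 6, it gave 0.90. Without PTU replicate 6 alone r was 0.90 (permutation p = 2e-05), and without Control replicate 5 alone it was 0.39 and no longer passed (permutation p = 0.189). Without Control replicate 6 alone r was 0.56 (permutation p = 0.048) and rho was 0.48 and no longer passed (permutation p = 0.0991). Each library was left out in turn, and those named here were picked after their values were seen. The p without PTU replicate 6 is thus no test of co-variation. In the PTU group without its 2 farthest libraries, PTU replicates 2 and 6, r was 0.85 (n = 4), and in the Control group without its 2 farthest, Control replicates 5 and 6, it was 0.70 (n = 6).

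**Figure D4:**
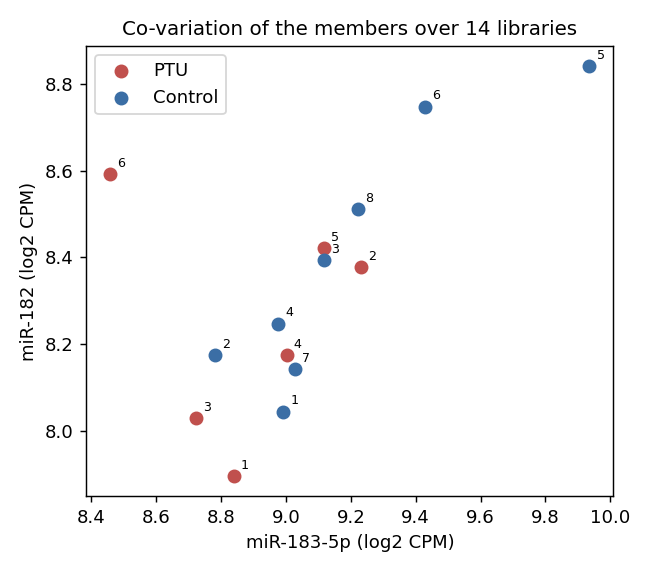
log2 CPM of miR-183-5p (x axis) against miR-182 (y axis), 1 point per library numbered by replicate, PTU in red and Control in blue. 13 libraries run along a rising band up to Control replicates 6 and 5, and PTU replicate 6 lies off it at the upper left.

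Likeness to other miRNAs was measured with group means taken out, as a description over 14 libraries that share their scaling. miR-182 held rank 16 of 356 among the miRNAs most like miR-183-5p (r = 0.58), and miR-183-5p held rank 12 among those most like miR-182. Without PTU replicate 6, a choice made after its values were seen, miR-182 held rank 1 for miR-183-5p (r = 0.88), and miR-183-5p held rank 2 for miR-182, after miR-361-5p (r = 0.89). The miRNAs outside the cluster most like the summed level of both members over all 14 libraries were miR-361-5p (r = 0.77), miR-296-3p (0.75), miR-342-3p (0.75), miR-181c-3p (0.69) and miR-215 (0.69). miR-342-3p is known from lymphocytes and brain, and miR-215 is known from the intestinal epithelium. Of these, miR-215 had the largest difference between groups, at -0.91 ± 0.44 on the log2 scale (SE; edgeR adjusted p = 0.384), and the other 4 lay between -0.20 and -0.085.

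Marker miRNAs of tissues that make the cluster, and of blood and muscle cells that serum carries, were taken as 5 lists. Over all 357 tested miRNAs 206 log2 fold changes were positive and 151 negative, with a median of 0.03. No list had a member that passed a false discovery rate of 0.05 by edgeR's quasi-likelihood test.

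Of the surface epithelium list, 6 of 9 tested miRNAs had a negative log2 fold change, with a median of -0.25, and at an unadjusted p under 0.05 there were 1 lower and 2 higher, where over all 357 miRNAs there were 5.32% lower and 7.84% higher. Without PTU replicate 6, 8 of 9 were negative, with a median of -0.21 and with 1 lower and 1 higher at that p. The most abundant were miR-203a-3p of the skin (-0.43 ± 0.23, SE), miR-205 of stratified epithelia (-0.11 ± 0.18) and miR-141-3p (1.11 ± 0.51, and -0.21 ± 0.24 without PTU replicate 6). The summed level of the list ran from 5963 to 10800 CPM in PTU and from 6960 to 9927 CPM in Control libraries. Its median was 7417 CPM in PTU and 8989 CPM in Control libraries.

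The neuron and retina list, which holds miRNAs of the nervous tissue and pigmented epithelium around photoreceptors, had 5 of 8 positive log2 fold changes and a median of 0.25, with none at an unadjusted p under 0.05. miR-9a-5p, of neural progenitors and neurons, had 0.34 ± 0.47 (SE), miR-128-3p of neurons 0.15 ± 0.19 and the other arm miR-9a-3p 0.41 ± 0.37. miR-124-3p, a defining miRNA of neurons and also made in photoreceptors, had a mean of 383 ± 135 CPM in the PTU group (SD, n = 6) and 236 ± 145 CPM in the Control group (SD, n = 8). miR-204-5p of the retinal pigment epithelium averaged 266 ± 77.1 and 298 ± 79.6 CPM, and the related miR-211-5p 12.8 ± 5.89 and 14.8 ± 8.86 CPM, in PTU and Control serum. The summed level ran from 5428 to 15183 CPM in PTU and from 3543 to 14371 CPM in Control libraries. Its median was 10188 CPM in PTU and 7663 CPM in Control libraries.

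The endocrine cell list, included because the cluster is also made in endocrine tissue such as the pineal gland, had 3 of 4 positive and a median of 0.14. miR-7a-5p had 0.23 ± 0.21 (SE), miR-375-3p of islets and neuroendocrine cells -0.09 ± 0.30 and miR-7b 0.14 ± 0.41. Its summed level ran from 410 to 772 CPM in PTU and from 362 to 626 CPM in Control libraries. The median of this sum was lower in PTU, at 489 CPM, than in Control libraries, at 509 CPM. The striated muscle list had 1 of 4 positive and a median of -0.16. miR-206-3p of skeletal muscle had -0.10 ± 0.12, miR-1-3p -0.43 ± 0.16 and miR-133a-3p -0.22 ± 0.14. The summed level of the muscle list ran from 353898 to 590331 CPM in PTU and from 412786 to 549341 CPM in Control libraries. Its median was 412081 CPM in PTU and 492033 CPM in Control libraries.

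The estimates of red cell miRNAs had the opposite sign to those of the members. The medians of the neuron and retina list and of the endocrine cell list were positive too. Of 8 listed by name 7 were tested (miR-486 was not analysed here), 7 of 7 had a positive log2 fold change, and the median was 0.82, with 4 higher at an unadjusted p under 0.05, where 7.84% of all 357 miRNAs were higher at that p. PTU replicate 6 was above all other 13 libraries for 2 of the 7, where it was the highest for 18.5% of all 357 tested miRNAs. It had 17616 CPM of miR-451-5p and 166 CPM of miR-363-3p, where the highest of the other 13 libraries had 8440 and 57.3 CPM. Its other red cell miRNAs lay within the range of those libraries, with miR-16-5p at 62128 CPM where their median was 91736 CPM. Without PTU replicate 6, 7 of 7 were positive with a median of 0.44, and 2 were higher at an unadjusted p under 0.05. miR-16-5p, which many cells make, had 0.08 ± 0.19 (SE), miR-92a-3p 0.36 ± 0.18 and the erythroid miR-451-5p 0.93 ± 0.34, or 0.48 ± 0.30 without PTU replicate 6. The summed level ran from 68040 to 159535 CPM in PTU and from 82380 to 134838 CPM in Control libraries. Its median was 107078 CPM in PTU and 100173 CPM in Control libraries. Most of this sum was miR-16-5p, which averaged 94756 CPM over all libraries. The part of red cell RNA in the lower estimates of the members was not tested beyond the fit with the red cell ratio.

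**Figure D5:**
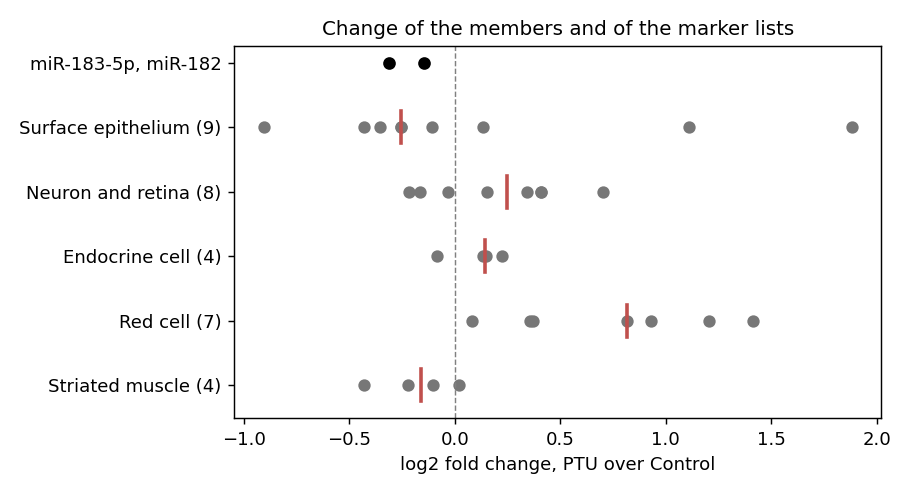
log2 fold change, PTU over Control, of the 2 members (black) and of each tested miRNA of the 5 marker lists (grey; number of miRNAs in brackets), with the median of each list as a red bar. The members lie at -0.31 and -0.14, the epithelial median at -0.25 and the red cell median at 0.82, or 0.44 without PTU replicate 6.

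Across pups, the members were set against 7 library measures, chosen after the data were seen: the log2 summed level of each list, the red cell ratio (log2 of miR-451-5p over miR-23a-3p, a usual measure of haemolysis) and the log2 library total. None of the 14 relations passed when adjusted over all of them. The epithelial sum had r = 0.54 (permutation p = 0.0395, adjusted p = 0.183; rho = 0.62, permutation p = 0.0200, adjusted p = 0.142) with miR-183-5p and r = 0.66 (permutation p = 0.0106, adjusted p = 0.0742; rho = 0.61, permutation p = 0.0230, adjusted p = 0.142) with miR-182. Without PTU replicates 1 and 3, the farthest from its median, these were 0.45 and 0.47 (n = 12). Within the PTU group r was 0.36 for miR-183-5p and 0.80 for miR-182, and within the Control group 0.60 and 0.51. PTU replicate 6, with 3441 CPM of miR-141-3p in this sum, was also the highest PTU library for miR-182. The r of the PTU group without it was not computed.

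The log2 library total had r = -0.67 with miR-183-5p (permutation p = 0.0101, adjusted p = 0.0742; rho = -0.56, permutation p = 0.0406, adjusted p = 0.142). Without Control replicate 5 and PTU replicate 3, the smallest and the largest library, it was -0.35 (n = 12). With miR-182 it was -0.38 (permutation p = 0.182, adjusted p = 0.425; rho = -0.13, permutation p = 0.659, adjusted p = 0.769), and 0.09 without the same 2 libraries. The red cell ratio had r = -0.53 with miR-183-5p (permutation p = 0.0524, adjusted p = 0.183; rho = -0.57, permutation p = 0.0355, adjusted p = 0.142), and -0.39 without Control replicate 6 and PTU replicate 3 (n = 12). The neuron and retina sum had r = 0.36 with miR-183-5p (permutation p = 0.214, adjusted p = 0.428; rho = 0.33, permutation p = 0.253, adjusted p = 0.590). Without Control replicates 3 and 8 it was 0.66 (n = 12), with group means taken out 0.54, within the PTU group 0.70 and within the Control group 0.47. With miR-182 the neuron and retina sum had r = 0.15 (permutation p = 0.607, adjusted p = 0.708). This was 0.43 without the same 2 libraries, 0.23 with group means taken out, -0.08 within the PTU group and 0.39 within the Control group. For the remaining relations r ran from -0.39 to 0.20 over all 14 libraries.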

How the data were processed

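Per the labels' protocols, the QIAseq miRNA kit was used on serum RNA. Not given in the sources used here are the read aligner, genome build and miRNA reference, and whether counts are of reads or of molecular identifiers. The authors deposited raw counts per miRNA, not normalized, for 14 libraries, beside their own p-value, FDR and log2 fold change per miRNA. The authors' mean log2 CPM and group means (a linear signal) were also deposited. The submitters' processing notes name edgeR. No listed miRNA had counts in fewer than 13 libraries, and the filter behind this is not stated.

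Counts were filtered with filterByExpr (357 of 375 miRNAs kept), TMM-scaled and tested with edgeR 4.0.16 in R 4.3.3 (glmQLFit, glmQLFTest; Benjamini-Hochberg over all 357). The standard error of a log2 fold change was its size over the square root of F, and the prior count for log2 CPM was 2. DESeq2 1.42.0 and limma 3.58.1 were alternatives, and the procedure was tested on simulated data. Correlations used 100000 permutations over 14 libraries and all pairings within groups. Groups and replicate numbers came from the sample titles, and the labels name no batch. No 2 libraries of a group agreed within sampling noise (lowest chi-square per degree of freedom 21.7).

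Members, lists and tests were chosen with earlier results of these data known. The rule for naming was every listed arm of the 3 hairpins, the 5 miRNAs most like their sum, and the 3 most abundant of each list. Others were named after their values were seen. The ratio and correlation were planned for 3 hairpins and run for the 2 members.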

Additional observations from a re-analysis of the deposited data

Results flagged for a closer look

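miR-183-5p in Control replicate 5, at 978 CPM, lay farther from the other 7 Control libraries than their own spread, the next being at 688 CPM. The log2 ratio of miR-183-5p to miR-182 in PTU replicate 6, at -0.14, lay apart from the other 5 PTU libraries, the nearest being at 0.70. About 1 group in 20 would be marked in this way by chance, and 6 groups were looked at.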

How the results depend on the processing

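Over all miRNAs, 0 were called with all libraries, and 1 with DESeq2, 3 with edgeR's likelihood ratio test, 1 with the log2 library total as covariate and between 0 and 1 with each library left out (1 without PTU replicate 5). The cause was not tested. For both members, the direction and the side of the threshold were the same in all 27 alternatives each. The log2 fold change ran from -0.38 to -0.18 for miR-183-5p and from -0.25 to -0.067 for miR-182 with each library left out, and the lowest adjusted p over all alternatives was 0.333 for miR-183-5p and 0.450 for miR-182. The ratio difference ran from -0.21 to 0.0064 with each library left out, and its sign turned without PTU replicate 6 (0.0064). The correlation of the members ran from 0.39 to 0.90 with each library left out. It was 0.61, 0.72 and 0.62 with RLE, upper-quartile and no factors, and 0.58 with group means taken out.

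The groups share replicate numbers 1 to 6, and same-numbered libraries did not deviate together (correlations from -0.25 to 0.29; 2 of 12 libraries correlated best with their own number). With the replicate block the log2 fold change was -0.31 for miR-183-5p and -0.16 for miR-182, the ratio difference was -0.15 (exact sign-flip p = 0.406), and 0 miRNAs were called, with 27 at an unadjusted p under 0.05, beside 47 without the block. Counting error, with each count taken as a separate molecule, was smaller than the spread between libraries. That spread holds the differences between pups and those of library preparation.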

Other observations

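Control replicate 5, the library with the highest miR-183-5p and miR-182, also had the highest level of the 14 libraries for 3 of the 8 neuron and retina miRNAs, miR-9a-5p (7328 CPM, where the median of the other 13 was 2925), miR-204-5p (417 CPM against 269) and miR-129-5p (162 CPM against 69.2). It was the highest for 1 of the 9 epithelial miRNAs, miR-205 (3060 CPM against a median of 2076), and for 0 of the 7 red cell miRNAs. Over all 357 tested miRNAs it was the highest for 35 (9.8%) and the lowest for 30 (8.4%). These miRNAs were picked after their values were seen.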
